A study of Mus musculus with 10 samples.

Results

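Human genetic studies have linked many loci to late-onset Alzheimer disease, and 10 mouse genes at such loci were followed here in RNA seq libraries of cortical microglia: Bin1, Picalm, Sorl1, Cd2ap, Clu, Ptk2b, Ms4a6d, Abi3, Abca7 and Rin3. The rule that chose them used their symbols and no measured value, but it was set with earlier results of these data known. All 10 were found among the 24421 gene symbols of the count tables. Microglia were taken from the cortex of 9-month-old mice, dissociated with papain and separated on an Optiprep density gradient, and each library came from a pool of 2 mice. The WT group had 3 libraries. The APP/PS1 group had 4 libraries from mice that carried the hAPP695swe (APP) and a mutant presenilin-1 (PS1) transgene, a model of amyloid deposition. The APP/PS1+N-AS group had 3 libraries from mice with the same transgenes that were injected subcutaneously with N-AS (N-acetyl sphingosine) at 30 mg/kg every day for 8 weeks, from 7 months of age. All animals of the treated group were transgenic, so the effect of N-AS was measured only on that background. The sample labels give the APP/PS1 group no treatment, while the study describes its APP/PS1 controls as given vehicle.

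Most of the 10 proteins act where membrane is taken into the cell and sorted. Picalm and Bin1 bind membrane and the clathrin machinery during endocytosis, Rin3 activates the small GTPase Rab5 on early endosomes, Cd2ap links endocytic and signalling proteins to actin, and Sorl1 is a sorting receptor that carries cargo, including the amyloid precursor protein, between endosomes and the Golgi. Abi3 and Ms4a6d are best known from microglia and other myeloid cells, Ptk2b is a calcium-responsive focal adhesion kinase, Abca7 moves lipids across membranes, and Clu is a secreted chaperone that is abundant in astrocytes.

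The total count per library was between 8805804 and 19432075. Each of the 10 genes had at least 20 reads in every library, and all 10 were among the 18727 genes that passed the filter on low counts and were tested. Levels are given as CPM, the count of a gene scaled to the size of its library with TMM factors. Group differences are log2 fold changes with their standard error (SE) from the quasi-likelihood test of edgeR, and p-values were adjusted after Benjamini and Hochberg across the 18727 genes, with a threshold of 0.05.

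The libraries were not pure microglia and were not alike. The mean log2 CPM of 14 microglial markers was between 5.31 and 5.92 in WT and between 6.78 and 7.13 in APP/PS1. In APP/PS1+N-AS it was between 6.11 and 6.56. Past the threshold, 11 of the 14 rose in APP/PS1 against WT and 0 fell. Summed over the markers, WT libraries had 787 to 1211 CPM, APP/PS1 libraries 2395 to 3097 CPM and treated libraries 1542 to 1992 CPM, and none of the 14 was at 0 in any library. In such bulk samples, fewer cells of a type and less RNA per cell cannot be told apart. WT 3 and APP/PS1+N-AS 3 stood apart from the other 8 libraries, with 18.5 and 21.2 CPM summed over 6 choroid plexus markers against 418 CPM or more elsewhere. WT 3 also had the highest mean log2 CPM of 12 neuronal markers, 8.25 against 6.87 to 7.57 in the other libraries, and the lowest of 8 endothelial markers, 5.60. Although the methods name male mice, the female transcript Xist was counted 5253 to 11188 times in 6 libraries, and 33 to 37 times in WT and 29 times in APP/PS1+N-AS 3. For 4 Y-linked genes together, WT libraries held 1492 to 3700 reads and APP/PS1+N-AS 3 held 2377. APP/PS1 1 and APP/PS1 2 held 495 and 690, and APP/PS1+N-AS 1 and APP/PS1+N-AS 2 held 470 and 863. Reads of Xist and of Y-linked genes were thus both present in these libraries. APP/PS1 3 and APP/PS1 4 held 13 Y-linked reads each. Among the APP/PS1 libraries this differed between those numbered 1 to 6 and those numbered 7 to 10. The sex of the pooled animals and the genotype therefore cannot be told apart between WT and APP/PS1. Sex bears on both comparisons of the treated group too. APP/PS1+N-AS 1 and APP/PS1+N-AS 2, with 7024 and 8848 Xist reads, differed in this from all WT libraries. APP/PS1+N-AS 3 differed in it from all APP/PS1 libraries.

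**Figure D1:**
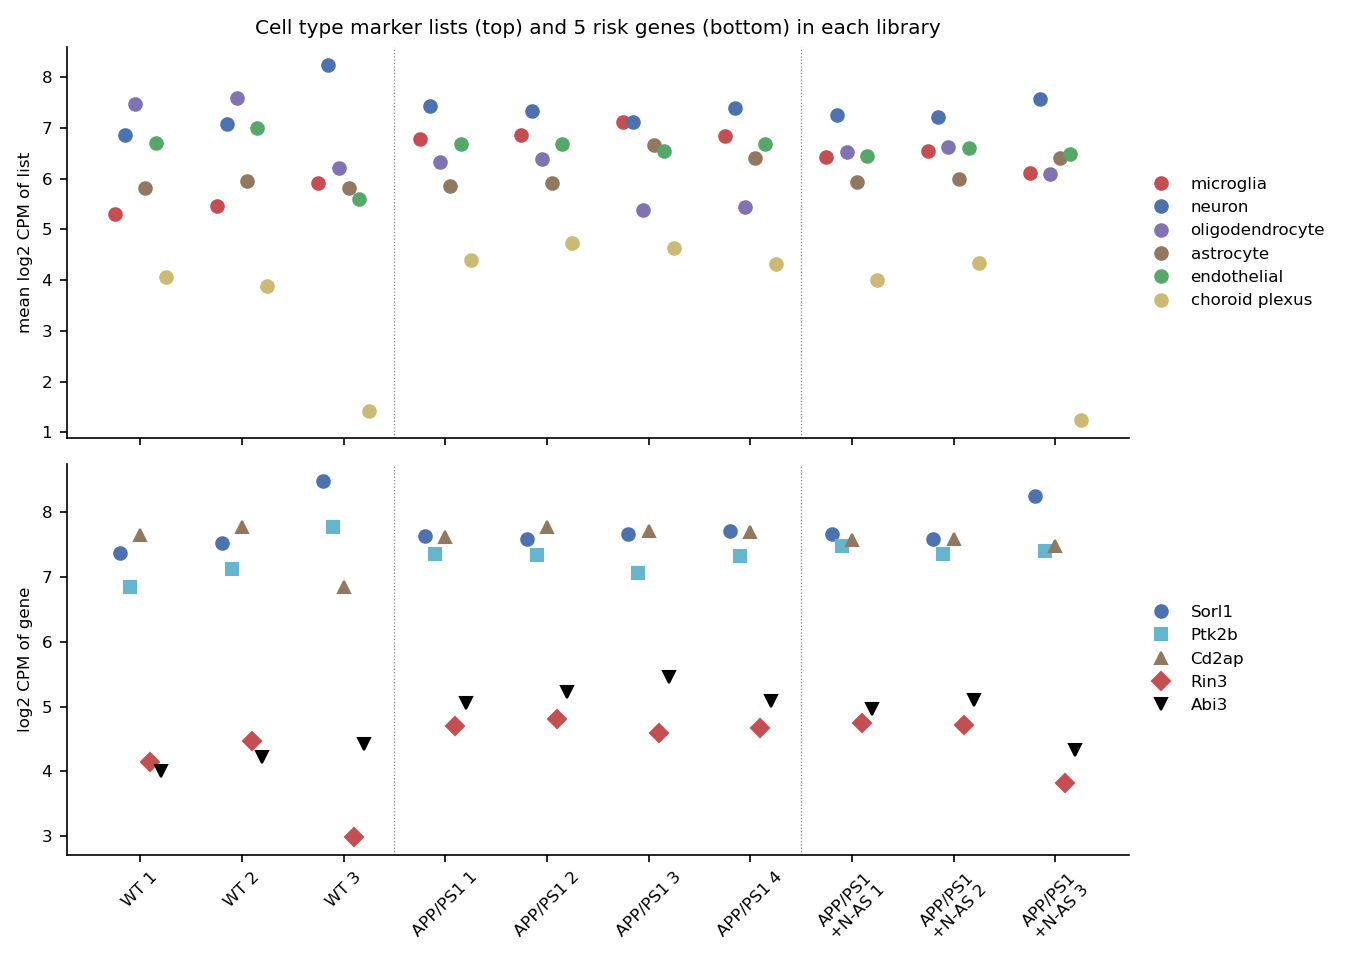
Mean log2 CPM of 6 cell type marker lists (top) and log2 CPM of 5 of the risk genes (bottom) in each of the 10 libraries, with dotted lines between the WT, APP/PS1 and APP/PS1+N-AS groups. WT 3 and APP/PS1+N-AS 3 have the lowest choroid plexus markers (yellow, top), and in the same libraries Sorl1 is highest and Rin3 lowest within their groups.

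To compare the genes with each other, levels were divided by the length of their merged exons (GENCODE M21, GRCm38). In the WT libraries, which also held RNA of other cell types, Clu had the highest level, 63.8 ± 2.95 CPM per kilobase (SD, n = 3). Bin1 followed at 50.2 ± 7.92, and the ranges of these neighbours did not overlap. Summed markers in WT were 3240 to 6693 CPM for neurons, 2374 to 6719 for oligodendrocytes, 2379 to 2803 for astrocytes and 787 to 1211 for microglia. Clu lay above 97.2% and Bin1 above 96.3% of 17898 genes with a length. Abca7 (29.3 ± 1.96 CPM per kilobase), Ptk2b (21.2 ± 7.22), Sorl1 (20.7 ± 9.26), Picalm (14.9 ± 1.69) and Cd2ap (11.1 ± 3.45) came next in WT, and each of these overlapped with its neighbour in the order. Abi3 stood apart below them at 4.48 ± 0.645 CPM per kilobase in WT. Rin3 (2.32 ± 1.07) and Ms4a6d (0.985 ± 0.329) were lowest and overlapped in WT. Ms4a6d lay above 17.5% of genes in WT and above 33.5% in APP/PS1, and Abi3 above 52.1% and 72.2%. With the length of the longest transcript or of the coding sequence in place of the merged exons, Clu and Bin1 remained highest and Abi3, Rin3 and Ms4a6d lowest in WT, but the order of the 5 genes between them changed.

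**Figure D2:**
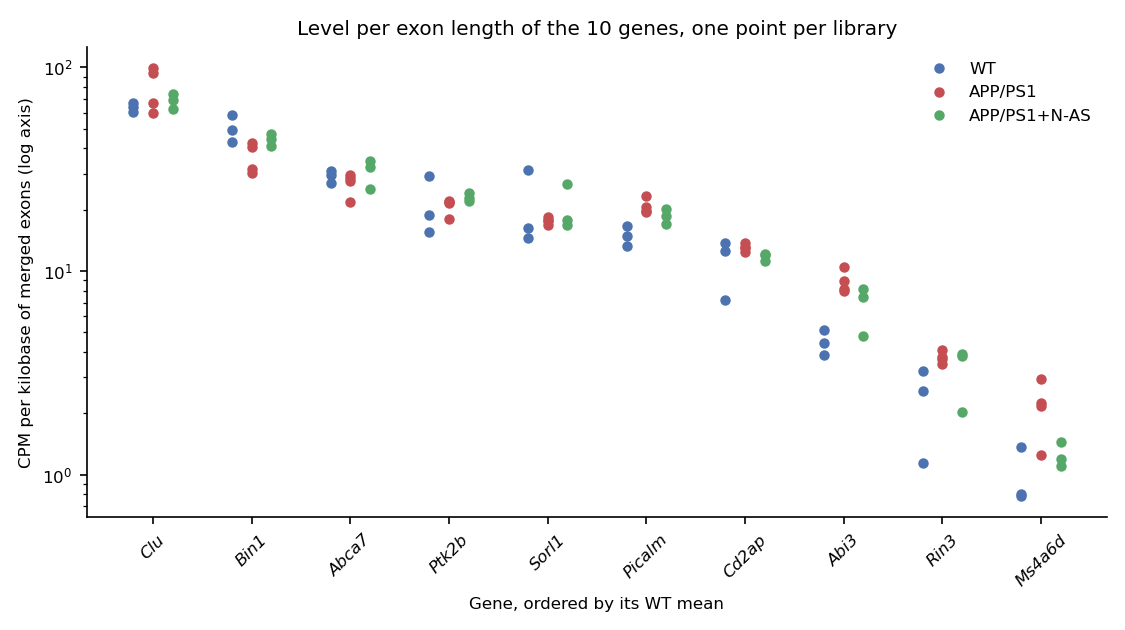
CPM per kilobase of merged exons of the 10 genes on a log axis, with 1 point for each library in WT (n = 3), APP/PS1 (n = 4) and APP/PS1+N-AS (n = 3). Clu and Bin1 lie highest in every group, and Abi3, Rin3 and Ms4a6d lowest, with the APP/PS1 points of Abi3 above all of its WT points.

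The comparison of APP/PS1 with WT asked how microglial fractions of the amyloid model differ from those of normal mice at 9 months. Abi3 rose, and no other member passed the threshold: 1 of 10 members was called, where 3.47% of all genes tested were called. In 4 of 10 members the groups did not overlap, Abi3, Picalm and Rin3 being higher and Bin1 lower with no exception among the libraries, against 14.8% of all genes. An unadjusted p under 0.05 was reached by 5 of 10 members, these 4 and Ms4a6d, against 17.2% of all genes. The median log2 fold change of the 10 members was 0.28, and that of all genes tested was −0.07.

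**Figure D3:**
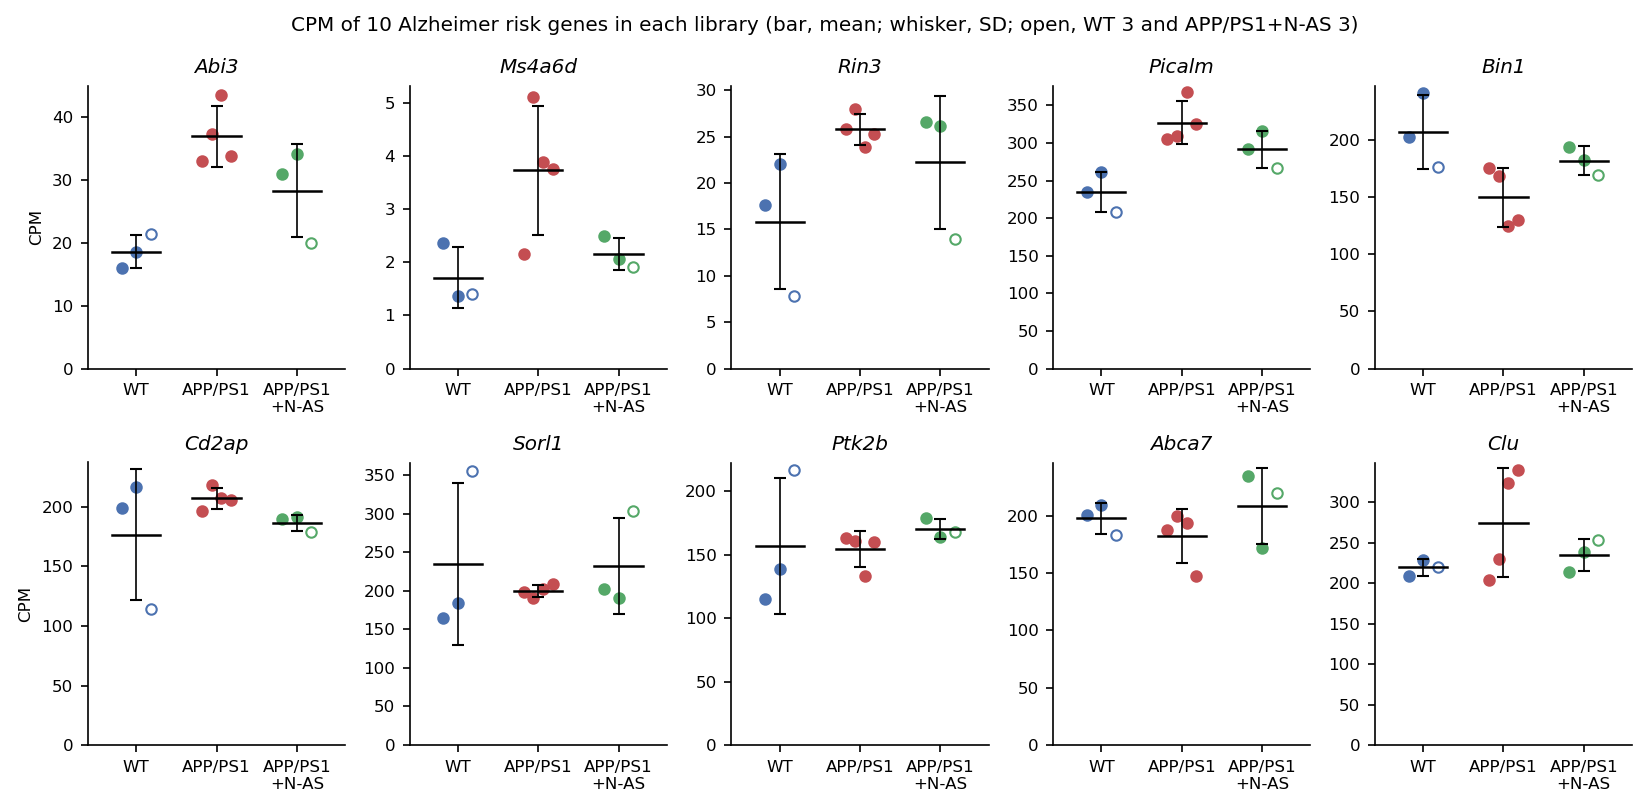
CPM of the 10 genes in every library, each panel with its own axis from 0, with bars for the group mean and whiskers for the SD (n = 3, 4 and 3) and open points for WT 3 and APP/PS1+N-AS 3. Abi3 lies between 16.0 and 21.3 CPM in WT and between 33.0 and 43.6 CPM in APP/PS1, and the wide WT whiskers of Sorl1, Cd2ap, Ptk2b and Rin3 come with an open point far from the other WT points.

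Abi3 encodes an adaptor of the WAVE complex, which drives the branching of actin filaments. The gene lies on chr11:95830074-95842476, minus strand. Its level was 16.0, 18.5 and 21.3 CPM in the 3 WT libraries and 33.0, 37.2, 43.6 and 33.8 CPM in the 4 APP/PS1 libraries. In APP/PS1+N-AS it was 30.9, 34.1 and 19.9 CPM. All APP/PS1 libraries thus lay above all WT libraries, while APP/PS1+N-AS 2 lay within the APP/PS1 range, APP/PS1+N-AS 1 just below it and APP/PS1+N-AS 3 within the WT range. Abi3 rose 1.98-fold in APP/PS1 against WT, by 0.98 ± 0.19 on the log2 scale (SE; edgeR quasi-likelihood test, Benjamini-Hochberg adjusted p = 0.0209). The difference kept its direction without any single library, from 0.89 to 1.10, but the edgeR adjusted p rose to 0.0824 without WT 1, 0.0697 without WT 2, 0.0519 without APP/PS1 2 and 0.0655 without APP/PS1 3. Within the libraries numbered 1 to 6 the difference in mean log2 CPM was 1.02, and within those numbered 7 to 10, where WT has 1 library, it was 0.84. The microglial markers rose by more: relative to their mean log2 CPM in the same library, Abi3 was lower in APP/PS1 than in WT, by −0.35. The part of these markers in the rise of Abi3 was not tested.

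Most of the Abi3 gene lies opposite other genes. Of its 4153 merged exon bases, 75.8% are also exon of genes on the other strand, namely Zfp652 (2913 bases), Phospho1 (1708 bases) and Gngt2 (234 bases), and 652 of its 1101 coding bases are shared. The kit marks the strand of each read, but whether the counting used the strand is not given in the sources used here, so part of the reads counted on these genes may be the same fragments. Gngt2, a G protein gamma subunit gene, was 4.86 to 7.55 CPM in WT and 16.6 to 21.6 CPM in APP/PS1 and rose by 1.63 ± 0.21 on the log2 scale (SE; edgeR adjusted p = 0.00264). Phospho1 differed by 0.68 (edgeR adjusted p = 0.124) and Zfp652 by 0.42 (edgeR adjusted p = 0.151), neither past the threshold. The ratio of Abi3 to Gngt2 reads was 1.57 to 2.24 in APP/PS1, 2.45, 2.55 and 4.39 in WT and 2.16 to 2.64 in APP/PS1+N-AS, so the genes did not keep a fixed ratio. A ratio that varies cannot show whether some reads were shared, and none was taken for Zfp652 or Phospho1.

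Among 10819 genes with a mean of at least 10 CPM, the pattern most like that of Abi3 over the 10 libraries was that of Slco2b1, an organic anion transporter gene, with a root mean square difference of 0.0853 in centred log2 CPM. Ikzf1, a haematopoietic transcription factor gene, followed at 0.0873. The spread of Abi3 itself was 0.467 on the same scale. Slco2b1 ranged from 54.1 to 126 CPM and Ikzf1 from 17.9 to 45.5 CPM, and these likenesses describe libraries that share the differences in microglial markers given above.

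The other genes around Abi3 were taken from a list of 20 WAVE complex and branched actin genes. In APP/PS1 against WT, 3 of the 20 rose and 0 fell, where 3.47% of all genes were called. For 9 of the 20 all APP/PS1 libraries lay above all WT libraries, where 14.8% of all genes did not overlap in either direction. The median log2 fold change of the list was 0.28. Nckap1l, the WAVE complex subunit of blood-derived cells, rose by 1.45 on the log2 scale (edgeR adjusted p = 0.00269), from 31.0 to 44.2 CPM in WT to 94.1 to 112 CPM in APP/PS1. Cyfip1, a subunit found in many cell types, rose by 0.73 (edgeR adjusted p = 0.0122), and Rac2, the haematopoietic Rac GTPase that activates the complex, rose by 1.05 (edgeR adjusted p = 0.0413) to 10.4 to 12.5 CPM in APP/PS1. The subunits best known from neurons and other cells did not pass the threshold, with Nckap1 at −0.15, Cyfip2 at −0.31 and Wasf1 at −0.27. The relatives of Abi3 did not pass it either, Abi1 differing by 0.15 (edgeR adjusted p = 0.587) and Abi2 by −0.21 (edgeR adjusted p = 0.746). Without single libraries, 2 or 3 of the 20 were called higher, and 5 with DESeq2, with limma, with the library set as covariate and without both WT 3 and APP/PS1+N-AS 3. Of 18727 genes, 1362 were called with DESeq2, 649 with limma and 1055 with the library set. Without both libraries 1058 of 19488 genes were called, and without single libraries 299 to 923 genes. Of the 20, 0 were called by edgeR in APP/PS1+N-AS against APP/PS1, and 0 by DESeq2. By edgeR 3 were lower at an unadjusted p under 0.05, against 8.83% of all genes in either direction. Against WT, edgeR called 0 of the 20 in APP/PS1+N-AS, with 2 higher and 1 lower at an unadjusted p under 0.05, and 1 was called higher by DESeq2, without APP/PS1+N-AS 3 and without both libraries.

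**Figure D4:**
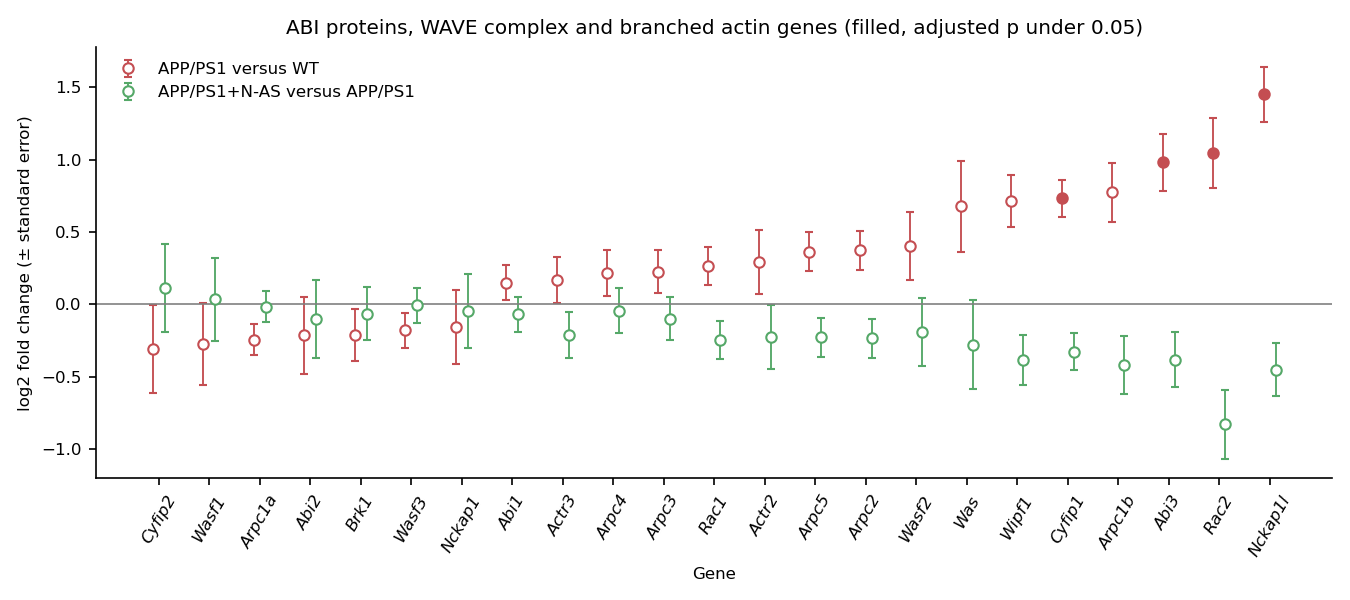
Fitted log2 fold changes with standard errors of Abi3, its relatives Abi1 and Abi2 and 20 WAVE complex and branched actin genes, ordered by the difference of APP/PS1 from WT, with filled symbols for adjusted p under 0.05 (edgeR quasi-likelihood test; APP/PS1 n = 4, WT and APP/PS1+N-AS n = 3). Filled symbols are seen for Nckap1l, Rac2, Abi3 and Cyfip1 in APP/PS1 against WT, and none in APP/PS1+N-AS against APP/PS1.

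Ms4a6d encodes a membrane protein with several membrane spans of the MS4A family, which myeloid cells express. It lies on chr19:11586604-11604849, minus strand, and was the gene of the 10 with the fewest reads, with 20 to 29 reads per WT library, 25 to 79 per APP/PS1 library and 26 to 39 per treated library. Its level was 2.37, 1.36 and 1.40 CPM in WT, 2.16, 5.12, 3.89 and 3.76 CPM in APP/PS1 and 2.50, 2.07 and 1.92 CPM in APP/PS1+N-AS. APP/PS1 1 lay within the WT range and the other 3 APP/PS1 libraries above it. The difference of APP/PS1 from WT was the largest of the 10 members, 1.15 ± 0.35 on the log2 scale, but did not pass the threshold (SE; edgeR adjusted p = 0.106), and at 20 to 79 reads the counting error alone is large. Of its relatives, Ms4a6b (−0.06), Ms4a6c (−0.26) and Ms4a7 (0.59) did not pass the threshold in the same comparison. Reads that fit several of these related genes could have been split between them, in a way that the sources used here do not state.

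Of the genes that form endocytic vesicles, Picalm and Bin1 went opposite ways. Picalm encodes an adaptor that brings clathrin to the membrane and lies on chr7:90130213-90213465, plus strand. It measured 234, 261 and 208 CPM in WT, 305, 309, 368 and 326 CPM in APP/PS1 and 292, 316 and 267 CPM in APP/PS1+N-AS. Every transgenic library, treated or not, was above every WT library. APP/PS1 differed from WT by 0.48 ± 0.15 on the log2 scale and did not pass the threshold (SE; edgeR adjusted p = 0.117), though DESeq2 called it at an adjusted p of 0.00385. The difference of APP/PS1+N-AS from WT was 0.31 (edgeR adjusted p = 0.757).

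Bin1, an amphiphysin relative that bends membrane, lies on chr18:32377230-32435737, plus strand. Its level was 203, 241 and 177 CPM in WT and 176, 168, 125 and 130 CPM in APP/PS1, and 194, 182 and 169 CPM in APP/PS1+N-AS. The APP/PS1 values were all below the WT values, by less than 1 CPM at the nearest pair, WT 3 and APP/PS1 1, and 2 of the 3 treated libraries lay within the WT range. Bin1 differed between APP/PS1 and WT by −0.47 ± 0.17 on the log2 scale and did not pass the threshold (SE; edgeR adjusted p = 0.182). Bin1 is also transcribed in oligodendrocytes and neurons, and 10 oligodendrocyte markers had a mean log2 CPM of 6.21 to 7.58 in WT against 5.37 to 6.38 in APP/PS1 (6.10 to 6.62 in the treated libraries), with 3 of the 10 lower and 0 higher past the threshold in APP/PS1 against WT. Both the markers and Bin1 were lowest in APP/PS1 3 and APP/PS1 4. The part of the oligodendrocyte markers in the difference of Bin1 was not tested. Bin2 (0.36) and Bin3 (0.53, edgeR adjusted p = 0.0994), the relatives of Bin1, differed the other way without passing the threshold.

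The list of 23 clathrin and AP2 endocytosis genes had 0 members past the threshold in APP/PS1 against WT and a median log2 fold change of −0.14. By edgeR, 4 of the 23 had an unadjusted p under 0.05, 1 higher and 3 lower, a share near the 17.2% of all genes. DESeq2 called 1 of the 23 higher and 0 lower, where it called 1362 of 18727 genes. The lowest p-values were those of Clta, the clathrin light chain A gene (0.71, edgeR adjusted p = 0.0874), and of Dnm3, a dynamin gene (−0.45, edgeR adjusted p = 0.179).

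A stretch of 250 bases before the start of Picalm was read from RefSeq (GRCm38.p6), since Picalm was the abundant member whose groups did not overlap and whose start region was in the sequence table used here. It lies at chr7:90129963-90130212, plus strand, is 79.2% G or C, and is written with an E-box of the kind bound by TFEB-family and other basic helix-loop-helix factors, TCACGTGA, in capitals.
Picalm: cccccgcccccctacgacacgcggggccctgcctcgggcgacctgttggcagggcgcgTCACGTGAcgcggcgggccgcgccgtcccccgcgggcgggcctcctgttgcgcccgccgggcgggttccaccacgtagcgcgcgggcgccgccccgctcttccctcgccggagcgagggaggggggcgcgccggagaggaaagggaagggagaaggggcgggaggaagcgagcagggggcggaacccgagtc
These letters were in 0.974% of 32851 start regions and, of 7 start regions of Picalm, Sorl1, Abca7, Rin3 and Cd2ap, only in this one. Other forms of the E-box were not searched for, and a start region of Sorl1 holds its core CACGTG. The letters GAGGAAGT (a PU.1 core) and TGACTCA (AP-1), searched on both strands as was the E-box, were in 0 of the 7 regions and in 3.20% and 5.20% of all regions. A MEF2 and an NF-kB motif of 10 letters each, given here by name, were also in 0 of the 7, and in 0.110% and 0.155% of all regions. No binding was measured in these samples, and a match is only a match of letters.

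Rin3, the Rab5 activator, lies on chr12:102283048-102390855, plus strand. It measured 17.6, 22.0 and 7.80 CPM in WT, 25.9, 28.0, 23.9 and 25.3 CPM in APP/PS1 and 26.6, 26.1 and 13.9 CPM in APP/PS1+N-AS. The APP/PS1 libraries lay close together and above all WT libraries, while WT 3 and APP/PS1+N-AS 3 were each the lowest of their group. Between APP/PS1 and WT the difference was 0.71 ± 0.32 on the log2 scale (SE; edgeR adjusted p = 0.286), and 0.38 without WT 3. With the set of library numbers as a covariate it was 0.93 and passed the threshold (edgeR adjusted p = 0.0469). Its relative Rin2, also a Rab5 activator, was 31.4 to 41.9 CPM in WT and 58.5 to 73.2 CPM in APP/PS1 and rose by 0.80 (edgeR adjusted p = 0.0126), while Rin1 (−0.47) and Rinl (0.39) did not pass the threshold. Of 13 genes of Rab5 and its effectors on early endosomes, 0 passed the threshold in APP/PS1 against WT by edgeR. DESeq2 called 1 of the 13 lower, where it called 1362 of 18727 genes. An unadjusted p under 0.05 was reached by 1 of the 13 with edgeR, against 17.2% of all genes. Appl2, a Rab5 effector, differed by −0.53 (edgeR adjusted p = 0.0545), and Eea1, the endosome tether, by 0.19 (edgeR adjusted p = 0.447).

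For Cd2ap, Sorl1 and Ptk2b, WT 3 lay far from the other WT libraries, and the fitted difference moved when it was left out. Cd2ap (chr17:42792951-42876665, minus strand) measured 199, 217 and 114 CPM in WT, 197, 218, 208 and 206 CPM in APP/PS1 and 190, 191 and 179 CPM in APP/PS1+N-AS. All 7 transgenic libraries lay within a range of 179 to 218 CPM, and WT 3 lay far below it. Cd2ap differed between APP/PS1 and WT by 0.23 ± 0.20 on the log2 scale (SE; edgeR adjusted p = 0.622) and 0.0032 without WT 3. The adaptor Sh3kbp1, its nearest relative, differed by 0.15 (edgeR adjusted p = 0.606).

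Sorl1 (chr9:41964720-42124297, minus strand) measured 164, 185 and 355 CPM in WT, 198, 191, 202 and 209 CPM in APP/PS1 and 202, 191 and 303 CPM in APP/PS1+N-AS. The coefficient of variation of the APP/PS1 libraries was 3.79%, while in the other groups a single library was high, WT 3 and APP/PS1+N-AS 3. These are the libraries that stood apart by their markers, whose neuronal markers were the highest of the 10 at 8.25 and 7.57 on the log2 scale, and the part of these markers was not tested. Sorl1 differed between APP/PS1 and WT by −0.23 ± 0.26 on the log2 scale (SE; edgeR adjusted p = 0.714), and it turned to 0.21 without WT 3. Of the other sorting receptors of its family, Sort1 (−0.34), Sorcs1 (−0.64), Sorcs2 (−0.13) and Sorcs3 (−0.34) did not pass the threshold. Among 15 retromer and sorting nexin genes, which return cargo from endosomes, 1 rose and 0 fell, against 3.47% of all genes called. That gene, Snx5, was 51.3 to 69.1 CPM in WT and 96.7 to 132 CPM in APP/PS1 and rose by 0.93 (edgeR adjusted p = 0.00953), and it was called in every fit tried for this comparison, whereas the median of the list was 0.01.

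Ptk2b (chr14:66153257-66281052, minus strand) measured 115, 139 and 217 CPM in WT, 163, 161, 133 and 160 CPM in APP/PS1 and 179, 164 and 168 CPM in APP/PS1+N-AS. WT held both the lowest and the highest library of the 10. Between APP/PS1 and WT, Ptk2b differed by −0.03 ± 0.20 on the log2 scale (SE; edgeR adjusted p = 0.963), and it turned to 0.29 without WT 3. Ptk2, the related focal adhesion kinase, differed by −0.31 (edgeR adjusted p = 0.326).

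Of 14 listed partners of focal adhesion kinases, 3 rose and 1 fell in APP/PS1 against WT, where 3.47% of all genes were called. Itgb2, the integrin beta chain of leukocytes, rose from 12.8 to 23.0 CPM in WT to 69.6 to 111 CPM in APP/PS1, by 2.36 on the log2 scale (edgeR adjusted p = 0.000841). Lyn, a Src-family kinase of myeloid cells, rose from 40.5 to 44.4 CPM in WT to 79.2 to 106 CPM in APP/PS1, by 1.13 (edgeR adjusted p = 0.00359). Bcar1, the docking protein of focal adhesions, fell by 0.60 (edgeR adjusted p = 0.0120), from 27.6 to 30.0 CPM in WT to 17.7 to 19.7 CPM in APP/PS1. Src itself (−0.33) and Fyn (−0.02) did not pass the threshold. Itgb2 and Lyn are known from leukocytes, and 11 of the 14 microglial markers rose past the threshold in the same comparison. The part of these markers in the rise of Itgb2 and Lyn was not tested.

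Abca7, the lipid transporter (chr10:79996494-80015572, plus strand), varied little. It measured 200, 209 and 183 CPM in WT, 188, 199, 194 and 147 CPM in APP/PS1 and 235, 171 and 219 CPM in APP/PS1+N-AS. All groups overlapped, and the highest library was 1.60 times the lowest, the smallest such ratio of the 10 members. Abca7 differed between APP/PS1 and WT by −0.12 ± 0.16 on the log2 scale (SE; edgeR adjusted p = 0.762). Of its relatives, Abca9 was 65.0 to 76.7 CPM in WT and 98.4 to 145 CPM in APP/PS1 and rose by 0.78 (edgeR adjusted p = 0.0297). The cholesterol transporter Abca1 (0.62, edgeR adjusted p = 0.0514) and Abca2 (−0.73, edgeR adjusted p = 0.0662) did not pass the threshold. Together with Rin2, Abca9 made up the 2 of 26 tested relatives of the 10 genes that rose, and 0 of the 26 fell, with a median of −0.09, where 3.47% of all genes were called in either direction. DESeq2 called 4 of the 26 higher and 2 lower, the replicate block 0, and leaving out single libraries gave 1 or 2 higher and 0 or 1 lower. Of 18727 genes, DESeq2 called 1362 and the replicate block 326. Without single libraries, 299 to 923 of all genes were called.

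Clu, the chaperone also called apolipoprotein J (chr14:65968483-65981547, plus strand), measured 209, 229 and 220 CPM in WT, 204, 230, 324 and 340 CPM in APP/PS1 and 214, 238 and 253 CPM in APP/PS1+N-AS. APP/PS1 3 and APP/PS1 4 were the highest libraries, and APP/PS1 1 was the lowest of all 10. Clu differed between APP/PS1 and WT by 0.32 ± 0.19 on the log2 scale (SE; edgeR adjusted p = 0.443). The mean log2 CPM of 12 astrocyte markers was 6.67 and 6.41 in APP/PS1 3 and APP/PS1 4, against 5.85 and 5.91 in APP/PS1 1 and APP/PS1 2 and 5.81 to 5.96 in WT. The markers were also at 6.41 in APP/PS1+N-AS 3, with Clu at 253 CPM. The part of these markers in the level of Clu was not tested. In a list of 9 tested chaperone and lipoprotein genes, 1 rose and 0 fell, against 3.47% of all genes called. It was Apoe, which went from 589 to 761 CPM in WT to 2173 to 4994 CPM in APP/PS1, by 2.29 on the log2 scale (edgeR adjusted p = 0.00316).

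The comparison of APP/PS1+N-AS with APP/PS1 asked what the injections changed in the model. By edgeR, 0 of the 10 members passed the threshold, as did 0 of all genes tested (0%), with 1653 genes (8.83%) at an unadjusted p under 0.05 and 79 genes called by DESeq2, of which 0 were members. The member with an unadjusted p under 0.05 was Ms4a6d, at −0.79 ± 0.34 on the log2 scale (SE; edgeR adjusted p = 0.542). Its 3 treated libraries lay between 1.92 and 2.50 CPM, above APP/PS1 1 in 1 case and below the other 3 APP/PS1 libraries in all cases. Abi3 differed by −0.38 ± 0.19 (SE; edgeR adjusted p = 0.600), and by −0.18 without APP/PS1+N-AS 3. In 2 of 10 members the groups did not overlap, against 12.7% of all genes: Ptk2b was higher with N-AS (163.9 CPM or more against 163.3 CPM or less) and Cd2ap lower (191 CPM or less against 197 CPM or more). The differences were 0.14 ± 0.20 and −0.15 ± 0.20 on the log2 scale (SE), within their standard error. Bin1 differed by 0.28 and Picalm by −0.17, without passing the threshold. The median over the 10 members was −0.16 and over all genes −0.01.

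**Figure D5:**
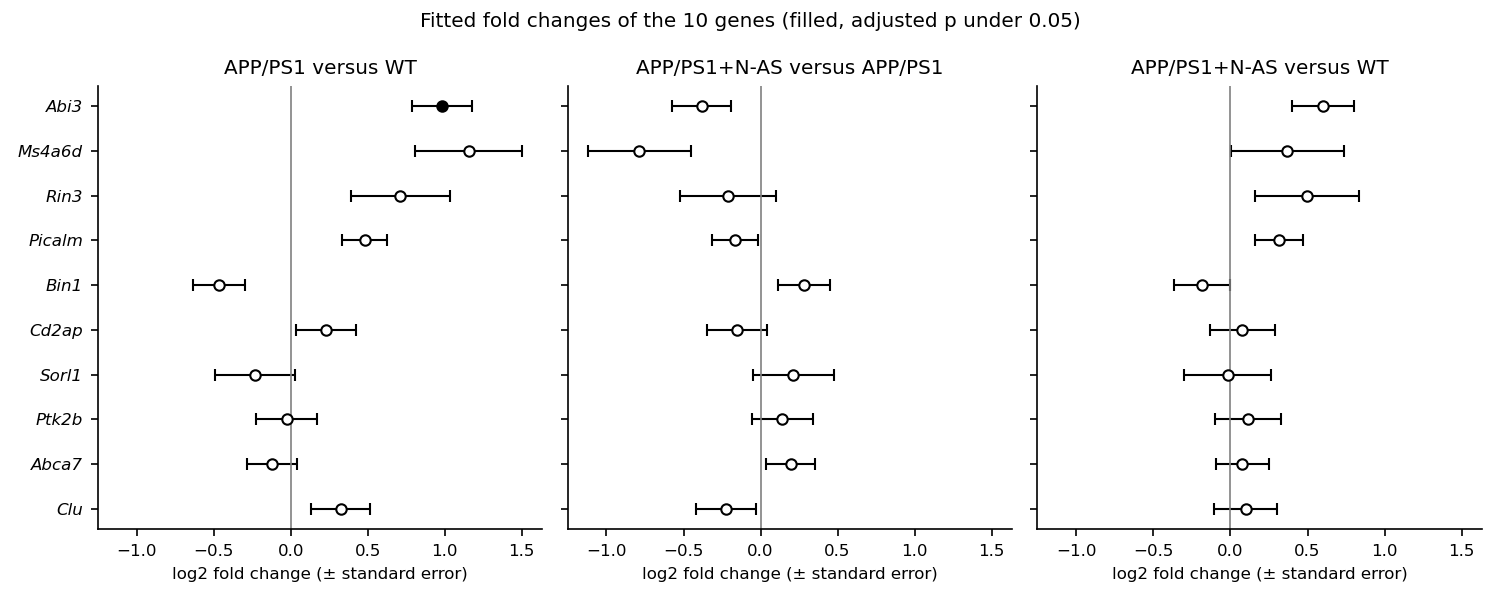
Fitted log2 fold changes of the 10 genes with standard errors in the 3 comparisons, with filled symbols for adjusted p under 0.05 (edgeR quasi-likelihood test; WT n = 3, APP/PS1 n = 4, APP/PS1+N-AS n = 3). The filled symbol is Abi3 in APP/PS1 against WT (0.98), and the 3 comparisons share groups, so that they are not independent of each other.

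The comparison of APP/PS1+N-AS with WT asked which differences from normal mice were present in treated mice. By edgeR, 0 of the 10 members passed the threshold, where 35 genes (0.187%) did, and DESeq2 also called 0 members. An unadjusted p under 0.05 was reached by 1 member, Abi3, against 6.73% of all genes. Its difference was 0.60 ± 0.20 on the log2 scale (SE; edgeR adjusted p = 0.552), and it passed the threshold without WT 3 and APP/PS1+N-AS 3, at 0.92 (edgeR adjusted p = 0.0497). Within the libraries numbered 1 to 6 the difference in mean log2 CPM was 0.91, and between the single libraries numbered 7 to 10 it was −0.10. APP/PS1+N-AS 1 and APP/PS1+N-AS 2 had 7024 and 8848 Xist reads, and WT 1 and WT 2 had 37 each. WT 3 and APP/PS1+N-AS 3 had 33 and 29. The part of sex in these differences of Abi3 was not tested. Picalm was the 1 member of 10 whose groups did not overlap, against 8.82% of all genes. The 3 values for Abi3 side by side were 0.98 in APP/PS1 against WT, −0.38 in APP/PS1+N-AS against APP/PS1 and 0.60 in APP/PS1+N-AS against WT.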

How the data were processed

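After removal of ribosomal RNA, the authors made libraries with the SMARTer Stranded kit and mapped the paired reads with TopHat. They deposited unnormalized counts by gene symbol, 1 table for each library. The submitters' processing notes also name edgeR and mm10. Of 24481 lines per file, 103 shared 43 symbols and were summed. Groups and replicate numbers came from the sample titles, and pooling, dose and ages from the labels and the study's methods.

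Genes were filtered with filterByExpr, scaled by TMM and tested in R 4.3.3 by the quasi-likelihood functions of edgeR 4.0.16 (estimateDisp, glmQLFit, glmQLFTest) in one model of 3 groups and 10 libraries, with Benjamini-Hochberg adjustment over 18727 genes. CPM used the TMM factors, and log2 CPM a prior count of 2. The study's methods name no test for counts. The common dispersion was 0.0752. The PCR-amplified reads carry no molecular identifiers, and counting error is therefore too small an estimate, and p-values measure the spread between pools of 2 mice. Coordinates and exon lengths came from GENCODE M21 (GRCm38), matched by symbol, and start regions from RefSeq (GRCm38.p6). The 5 motifs were searched on both strands from 250 bases before to 50 after each start.

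The 10 genes, the 8 lists of related and partner genes and the 11 marker lists were chosen with earlier results of these data known. Of the partner genes, those past the threshold were named (at most 3 per list and comparison), or the 2 with the lowest p, and relatives of the 10 genes by name. Of the genes under this rule, 1 is not reported here singly.

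Other settings tried were DESeq2 1.42.0, quantile-normalized voom in limma 3.58.1, upper-quartile factors, total counts only, no filter beyond 1 read, only the 2 groups compared, the replicate block, the set of library numbers (1 to 6, 7 to 10) as a covariate, levels relative to the microglial marker mean, and each library left out. Leaving out WT 3 and APP/PS1+N-AS 3 together was chosen after seeing the data. The replicate numbers in the titles were checked for pairing by correlating the deviations of same-numbered libraries from their group means. For APP/PS1+N-AS and APP/PS1 r was 0.278, 0.142 and 0.309, all positive, which does not establish a pairing. APP/PS1 3 and APP/PS1+N-AS 3 differed in Xist, with 8477 and 29 reads. The main model did not use the replicate numbers, and the block was only tried as another setting.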

Additional observations from a re-analysis of the deposited data

Results flagged for a closer look

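In each of the 10 genes, the 4 APP/PS1 libraries were searched for a library far from the others of its group, and 1 was found. Ptk2b measured 133 CPM in APP/PS1 3 against 160 to 163 CPM in the other 3 APP/PS1 libraries, a gap of 0.887 of the group's range, which is above Dixon's critical value for 4 libraries. Chance flags about 1 in 20 such groups.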

How the results depend on the processing

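Of 470 fits of a member under another setting, 439 kept direction and side of the threshold. Unless stated, the cause of a change was not tested. In APP/PS1 against WT, 649 genes were called, 77.0% of them higher, and 1362 with DESeq2 (63.9% higher), 1058 without WT 3 and APP/PS1+N-AS 3 (64.1% higher), 1055 with the library set as covariate (71.2% higher), 410 with only the 2 groups (86.3% higher) and 326 with the replicate block. Without single libraries the count was 299 to 923. Members called were 3 with DESeq2 (Abi3, Picalm and Ms4a6d), 2 with the library set (Abi3 and Rin3), 0 with the block and 0 to 1 without single libraries. Abi3 passed in 11 of 16 fits, and in 3 of 7 that left out a library.

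In APP/PS1+N-AS against APP/PS1, 0 genes became 79 with DESeq2, 1 without WT 3 and APP/PS1+N-AS 3 and 0 to 1 without single libraries. In APP/PS1+N-AS against WT, 35 genes became 187 with DESeq2, 163 without both libraries, 64 with the library set, 20 with limma, 2 with only the 2 groups, 5 with the block and 1 to 116 without single libraries, and 0 members became 1 (Abi3) without both libraries.

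Log2 fold changes that turned were small or moved with WT 3 or APP/PS1+N-AS 3. In APP/PS1 against WT, Ptk2b was 0.064 with limma, 0.29 without both libraries and −0.21 to 0.29 without single libraries, and Sorl1 was 0.21 without both and −0.43 to 0.21 without single libraries. In APP/PS1+N-AS against APP/PS1, Rin3 was 0.039 without both and −0.36 to 0.041 without single libraries, and Sorl1 was −0.018 without both and −0.016 to 0.33 without single libraries. In APP/PS1+N-AS against WT, Sorl1 was 0.0079 without the filter, 0.088 with limma, 0.022 with the block, 0.017 with the library set, 0.19 without both and −0.23 to 0.41 without single libraries. Cd2ap was −0.11 without both libraries there and −0.15 to 0.26 without single libraries, Ptk2b −0.062 to 0.43 and Abca7 −0.014 to 0.21. Abi3 relative to the microglial marker mean was −0.35 in APP/PS1 against WT.

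The replicate block gave Abi3 1.02 in APP/PS1 against WT (edgeR adjusted p = 0.0709). Same-numbered libraries of these groups had r of −0.486, 0.441 and −0.00961, and those of APP/PS1+N-AS and WT −0.136, 0.348 and 0.240. A pairing was not shown for these groups either. Between APP/PS1+N-AS and APP/PS1 the block changed no call. Ms4a6d, at 20 to 79 reads, is limited by depth.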

Other observations

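A list of 20 genes at other Alzheimer risk loci included the metalloprotease gene Adam10 and the transcription factor gene Mef2c. In APP/PS1 against WT, 0 of the 20 passed the threshold by edgeR and 0 by DESeq2. By edgeR 1 was lower at an unadjusted p under 0.05, against 17.2% of all genes in either direction. Their median log2 fold change was −0.04, against −0.07 over all genes. The lowest p-values were those of Slc24a4, a cation exchanger gene, at −0.38 (edgeR adjusted p = 0.169) and of Ace, the angiotensin-converting enzyme gene, at 0.71 (edgeR adjusted p = 0.299). Without WT 3 and APP/PS1+N-AS 3, 1 of the 20 was called lower, where 1058 of 19488 genes were called.

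Relative to the mean of the microglial markers in the same library, all 10 genes were lower in APP/PS1 than in WT, from −0.29 for Ms4a6d and −0.35 for Abi3 to −1.81 for Bin1 on the log2 scale. In APP/PS1+N-AS against APP/PS1 the same differences ran from −0.16 for Ms4a6d to 0.83 for Bin1, with Abi3 at 0.13. These are values without a test, and the marker mean itself was 5.56 in WT, 6.90 in APP/PS1 and 6.37 in APP/PS1+N-AS. Any gene that rose by less than the markers in APP/PS1 comes out lower on this scale. The median log2 fold change of all genes tested was −0.07, and how many of them come out lower was not counted. That all 10 were lower is therefore not a trait particular to these genes.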
